A study of Homo sapiens with 6 samples.

Results

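Of 167726 merged open regions in 22Rv1 prostate cancer cells, 5008 were open at every time and ranked higher 24 h after the start of a FOXA1 degradation time course than at its start; they are called strengthened regions here. They were chosen by their 24 h and 0 h fold percentiles among the 72695 regions with a peak in all 6 libraries. In each library's peak list, the fold over background was ranked as a percentile, and the highest peak stood for the region. A region was kept when both 24 h percentiles lay at least 10 points above the higher 0 h percentile. The gap of a region is the lower 24 h percentile minus the higher 0 h percentile. Since these values chose the regions, their 24 h and 0 h levels are a description and were not tested. The 5008 were 6.89% of the regions that could have been chosen, and nothing is read from that share.

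FOXA1, a forkhead protein of luminal prostate cells, belongs to the pioneer transcription factors. It binds its motif in closed chromatin, opens distal enhancers and lets the androgen receptor bind there. FOXA1 is also known to limit where some other factors, the androgen receptor among them, bind. An open region is where nucleosomes are displaced, as at enhancers and promoters, and the transposase used in ATAC-seq inserts there.

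The libraries are from 22Rv1, an established human prostate cancer line, and all 6 carry the label FOXA1_dTAG. A protein fused to a dTAG can be sent for degradation by adding a small molecule that binds the tag. The 3 groups are 0 h, 1 h and 24 h, with 2 libraries each. The labels give neither the molecule nor its dose, nor whether the cells are 1 clone, nor whether replicates are separate cultures, so replicates may differ for technical reasons alone. No group lacks the tag, and FOXA1 protein is not measured in these files. Peaks are in hg19, for which no sequence or gene positions were used here, so regions carry no gene names and the cell type was not checked against markers.

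The 6 lists held 101755 to 125396 peaks on the autosomes and X. Relative depth, read from the background of each list, came to 10.5 and 8.29 tags per kb for the 0 h libraries, 8.14 and 8.63 for 1 h, with 7.35 and 7.06 for 24 h, so depth was lower at 24 h than at 0 h, and its part in the results was not tested. With 2 libraries against 2, an exact two-sided permutation test cannot go below p = 0.333, so single regions were not called by a test.

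The strengthened regions lay in the lower middle of the lists at the start and in the upper part at the end. Their median percentiles were 42.4 and 40.8 in the 0 h libraries, 59.6 and 64.6 in the 1 h libraries and 73.6 and 75.1 in the 24 h libraries. Over all 72695 regions the medians were 66.8 and 68.9 at 0 h, 66.8 and 68.8 at 1 h and, at 24 h, 63.1 and 67.5. The strengthened regions thus stood below the typical lasting region at 0 h and above it at 24 h, and the 1 h libraries lay between. Their median gap was 18.5 points, with quartiles of 13.6 and 26.04 and a maximum of 72.1. The gap reached 20 points in 2180 regions, 30 in 837 and 50 in 89. The mirrored rule, with both 24 h percentiles at least 10 points below the lower 0 h percentile, gave 7462 weakened regions, 10.3% of the same 72695.

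**Figure D1:**
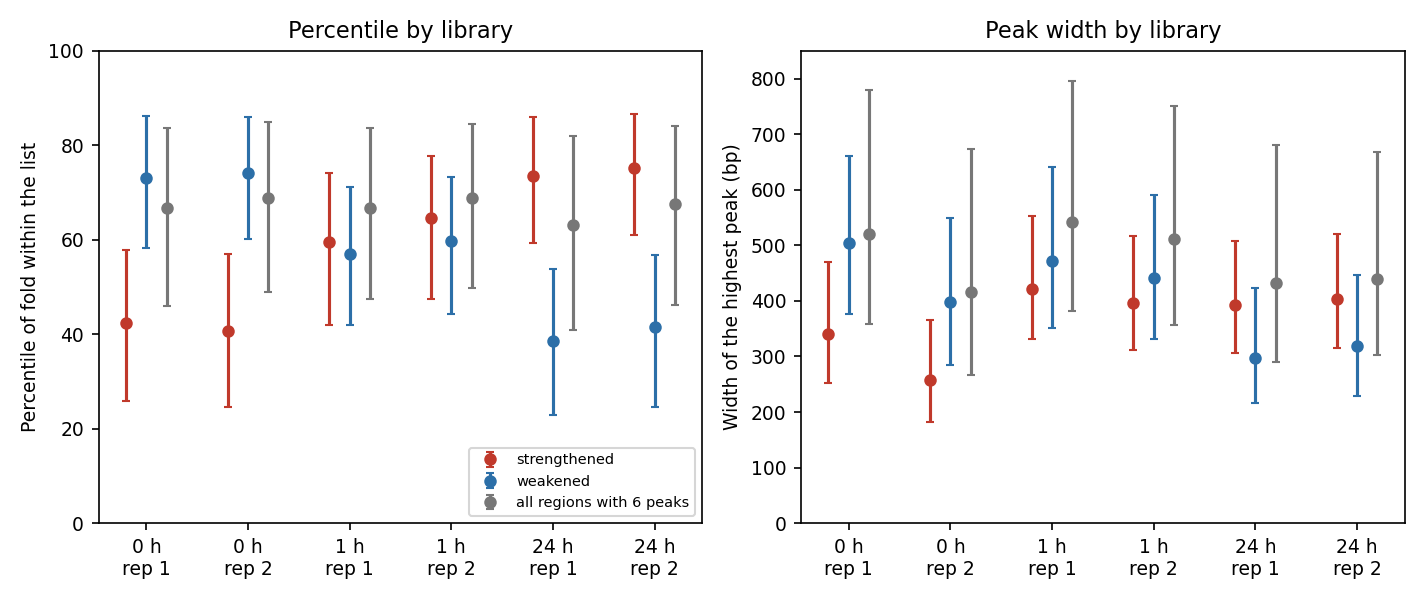
Left, percentile of the fold over background within each library's list; right, width in bp of the highest peak; points are medians and bars the quartiles over 5008 strengthened, 7462 weakened and all 72695 regions with a peak in all 6 libraries. The strengthened medians lie at 42.4 and 40.8 at 0 h and at 73.6 and 75.1 at 24 h, which the rule fixes in direction. At 1 h they lie at 59.6 and 64.6, and there the rule uses only the presence of a peak.

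The balance of strengthened and weakened regions depended on how percentiles were set. Strengthened regions made up 40.2% of both sets together as ranked here, where a library with fewer weak peaks gives a lasting peak a lower percentile. They made up 50.8% (7094 strengthened, 6869 weakened) when percentiles were taken among the 72695 lasting regions alone. With all lists reduced to as many peaks as the shortest holds, the share was 56.4% (6725 and 5203). Hence which direction was more frequent is not settled by these lists. Each of these 3 ways of ranking gave at least 5008 strengthened and 5203 weakened regions. These are counts for each way, not regions shared by all 3. Some other settings gave fewer strengthened regions, such as 4926 (with 7549 weakened) when −log10 p was ranked.

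The same rule applied across replicate numbers shows how often such a gap arises when each side holds 1 library of each time. With the replicate 2 libraries of 0 h and 24 h against the replicate 1 libraries, 2916 regions (4.01%) had both replicate 2 percentiles at least 10 points higher. In the opposite direction there were 806 (1.11%). The 5008 strengthened regions outnumbered each of these sets. The excess over the larger set depended on the setting, and the order turned round in 2 of them. Without 0 h replicate 1, 9153 strengthened regions stood beside 12688 with replicate 2 above replicate 1, and without 24 h replicate 2, 7581 stood beside 10524. In these 2 settings 1 side of the comparison across replicate numbers held a single library. Time and replicate number were thus mixed there, and the turned order does not set time against replicate number alone. At a threshold of 5 points the counts were 7915 and 6664. Among lasting regions ranked on their own, 7094 strengthened regions stood beside 1962 and 1740 across replicate numbers, and with shortened lists 6725 stood beside 1754 and 1482. A gap of 20 points was met by 2180 strengthened regions, and by 512 and 126 across replicate numbers.

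In a second look, regions were chosen in the libraries of 1 replicate number and read in those of the other. When regions were chosen in replicate 1 alone, with 24 h at least 10 points above 0 h, 13196 qualified. In the replicate 2 libraries, these had a median 24 h minus 0 h difference of 9.80 points, and 49.6% of them were again at least 10 points higher. Over all lasting regions the median was −0.53 points and the share 19.999%. Chosen in replicate 2, 14538 regions had a median of 7.31 points in replicate 1, and 45.0% were at least 10 points higher, against −1.44 points and 18.2% over all regions. The difference in the libraries that did the choosing had been 19.4 and 19.99 points (medians, chosen in replicate 1 and in replicate 2), so the difference in the other pair was smaller but in the same direction. The shares of 49.6% and 45.0% count the same 6549 regions, those at least 10 points higher in both pairs. They are thus 1 overlap, not 2 results. The rule places all 5008 strengthened regions among these, so the shares give no separate support for them. With 1 pair on each side, no test was possible.

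How often a region was strengthened went with its standing at the start, but the rule uses the same 0 h values. Lasting regions were sorted by their mean 0 h percentile into steps of 10 points. Of those between 10 and 20, 23.04% were strengthened, of those between 40 and 50 12.1%, and of those between 70 and 80 2.95%. Between 80 and 90 there were 71 strengthened regions (0.611%) and above 90 none, since no room for a 10-point gap was left there. Weakened regions were distributed in the opposite way, from 0.714% between 10 and 20 to 13.7% between 70 and 80. A 0 h value that is low by error alone favours a strengthened call, and a high one a weakened call. Over all lasting regions, the median 24 h minus 0 h difference was 6.67 points between 10 and 20 and −2.54 between 70 and 80. These shares are therefore a description. Calls across replicate numbers were also most frequent per region between 20 and 40: regions with replicate 2 above replicate 1 made up 8.74% between 20 and 30 and 8.76% between 30 and 40, where 21.0% and 15.2% were strengthened.

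**Figure D2:**
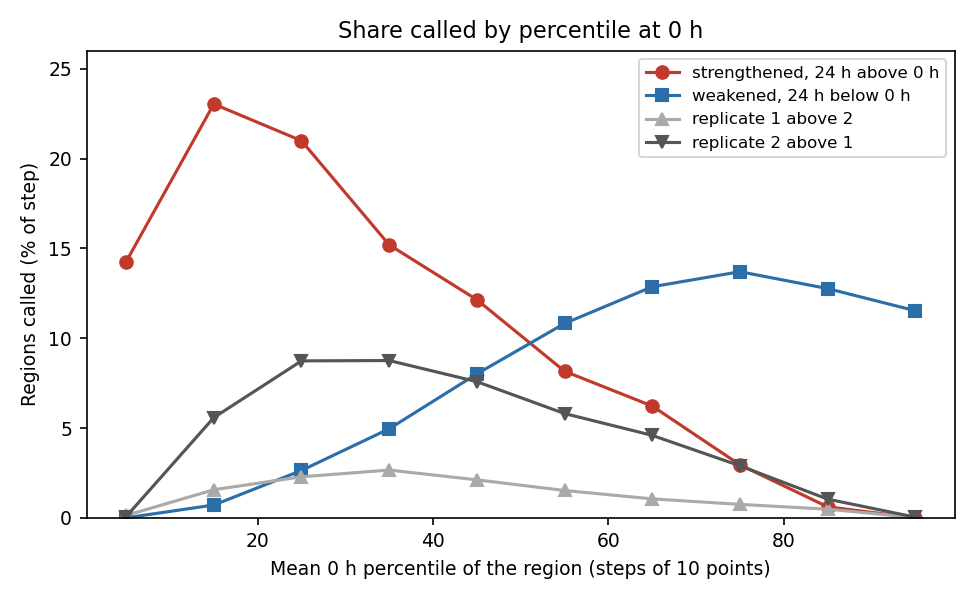
Share of lasting regions called by each rule (y axis, % of the regions in a step) against the mean 0 h percentile of the region (x axis, steps of 10 points). Strengthened regions peak at 23.04% between 10 and 20, weakened ones at 13.7% between 70 and 80, and the replicate 2 above 1 calls at 8.76% between 30 and 40. The steps use 0 h values that the rules also use.

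Many strengthened regions started weak. Both 0 h percentiles were below 50 in 2716 of them (54.2%), against 20.5% of all lasting regions. Both were below 25 in 747 (14.9%), against 4.89% of all lasting regions. At 24 h, both percentiles were at least 75 in 2053 (41.0%) and at least 90 in 574 (11.5%), against 30.4% and 11.1% of all lasting regions. Hence the strengthened set reached the 90th percentile of the 24 h lists about as often as lasting regions in general. It reached higher cuts less often: both percentiles were at least 95 in 4.15%, against 5.18%, and at least 99 in 0.339%, against 0.871%. Crossing from below 50 in both 0 h libraries to 75 or more in both 24 h libraries was seen in 339 regions, and from below 25 in 27. Any lasting region that crosses in this way meets the rule, so these are also the counts over all lasting regions. By the authors' −log10 q, a measure of how sure the peak call is, 1344 strengthened regions (26.8%) reached 10 in both 0 h libraries, 2758 (55.1%) in both 1 h libraries and 3976 (79.4%) in both 24 h libraries. Of all lasting regions, 68.9% did so at 0 h, 68.4% at 1 h and 61.7% at 24 h.

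The region with the largest gap was chr5:160663762-160664528. Its percentiles were 12 and 7.14 at 0 h, 42.0 and 74.1 at 1 h and, at 24 h, 85.2 and 84.1. The 24 h libraries agreed closely and lay above both 1 h libraries, which differed widely from each other and lay above both 0 h libraries. The number of tags stacked at its summit, recovered from the deposited fold and p-value, came to 9 and 6 at 0 h, then 12 and 20 at 1 h and, at 24 h, 27 and 28. A stack of 6 tags has an exact 95% Poisson interval of 2.20 to 13.1 and one of 28 tags of 18.6 to 40.5, which cover counting error only. Summits of weak peaks thus rest on few tags. In replicate 1 the intervals were 17.8 to 39.3 at 24 h and 4.12 to 17.1 at 0 h, and since the region was picked for this difference, their distance supports nothing.

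The next regions behaved alike but differed at 1 h. At chrX:36124413-36125059 the percentiles were 12 and 7.14 at 0 h, 42.0 and 64.6 at 1 h and, at 24 h, 80.9 and 91.6. At chr1:170677163-170677590 they were 18.8 and 7.14 at 0 h, 52.4 and 71.2 at 1 h and, at 24 h, 86.5 and 88.4. In both, the 1 h libraries lay between the other times with no overlap. At chr6:23823669-23824092 they were 18.8 and 24.6 at 0 h, 74.2 and 76.8 at 1 h and, at 24 h, 91.7 and 97.2. At chr7:120410276-120410745 they were 32.5 and 24.6 at 0 h, 79.6 and 87.9 at 1 h and, at 24 h, 98.7 and 97.9. These last 2 regions had covered most of the distance by 1 h and stood above the 90th percentile at 24 h.

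On chromosome 13, 2 of the 10 regions had reached their 24 h level by 1 h. The first, chr13:54707951-54708599, had 18.8 and 2.18 at 0 h, 88.2 and 80.3 at 1 h and, at 24 h, 83.0 and 89.0. The second, chr13:61362302-61362753, had 12 and 15.3 at 0 h, 90.1 and 77.8 at 1 h and, at 24 h, 91.6 and 78.2. In both, the 1 h and 24 h percentiles overlapped. The slowest of the 10 was chr12:83330844-83331341, with 6.36 and 15.3 at 0 h, 42.0 and 47.5 at 1 h and, at 24 h, 78.1 and 83.2. The others, chr1:62312572-62313428 and chr14:84934513-84934978, had gaps of 62.2 and 62.1 points and 1 h percentiles of 59.8 and 65.7, and of 71.2 and 79.3. With the tag stack ranked in place of the fold, an alternative chosen after seeing the data, the gaps of all 10 lay between 43.97 and 62.2 points. Under stricter lists most of the 10 no longer had a peak in all 6 libraries. With shortened lists 4 of the 10 did, with a −log10 q of at least 5 only chr14:84934513-84934978 did, and with 50% of the region covered by peaks in each library 0 did.

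**Figure D3:**
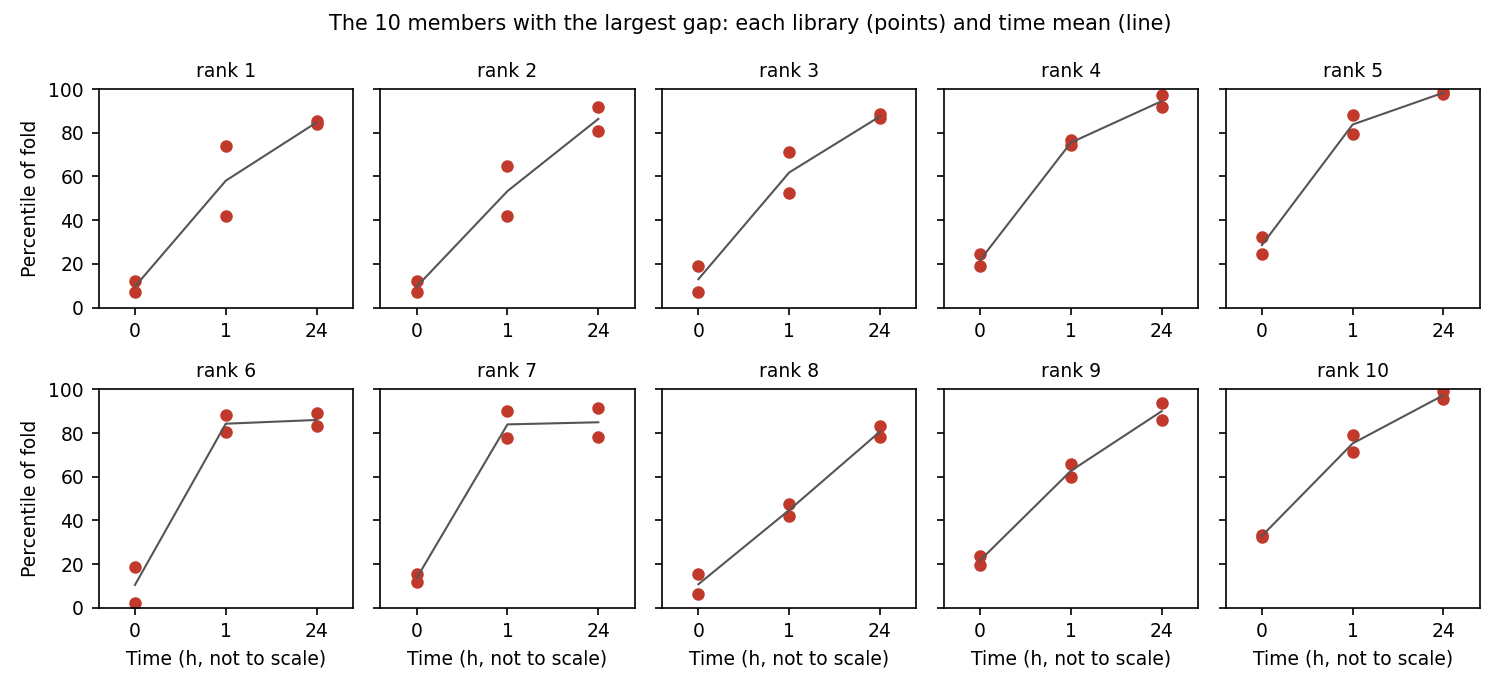
Percentile of the fold within each list (y axis) at 0, 1 and 24 h (x axis, not to scale) for the 10 strengthened regions with the largest gaps; points are libraries and the line joins the means of each time. Ranks 6 and 7, both on chromosome 13, had 1 h values overlapping those at 24 h, and rank 8, on chromosome 12, had 1 h values of 42.0 and 47.5, midway between the other times.

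The strongest strengthened regions at 24 h were among the tallest peaks of those lists. They lay on chromosomes 4, 1 and 9 and had gaps of 10.5 to 32.9 points. For chr4:127771458-127771839 the percentiles were 89.4 and 65.3 at 0 h, 93.0 and 97.1 at 1 h and, at 24 h, 99.9 and 99.9. The authors' folds there were 11.8 and 8.35 in the 0 h libraries, 12.5 and 14.7 in the 1 h libraries, and 21.2 and 21.6 in the 24 h libraries. The 0 h libraries differed by over 20 points here, so its gap was only 10.5. For chr9:29556286-29556682 the percentiles were 66.8 and 57.1 at 0 h, 91.7 and 95.6 at 1 h and, at 24 h, 99.9 and 99.7. That region had the largest gap of these 5, 32.9 points, and its summit held 51 and 46 tags at 24 h, against 20 and 13 at 0 h.

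The other 3 of the strongest were chr1:103222925-103223359, chr4:117267840-117268315 and chr4:151742781-151743289. Their gaps were 13.7, 28.9 and 15.98 points. In the 1 h libraries they stood at 99.4 and 99.7, at 84.4 and 88.6, and at 99.3 and 97.0. All 5 of these regions had both 1 h percentiles above both 0 h percentiles, and 3 of the 5 lay on chromosome 4. That chromosome held 315 of the 5008 strengthened regions and 3494 of the 72695 lasting regions. With only 5 regions, nothing is read from their chromosomes.

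The lowest starting points were of another kind. At chr1:207200608-207200954 the percentiles were 0.780 and 0.421 at 0 h, 1.32 and 2.13 at 1 h and, at 24 h, 16.5 and 17.4. Its summit held 36 and 29 tags at 24 h, against 39 and 25 at 0 h, while the local background by which the fold is divided was 7.48 and 6.31 tags at 24 h, against 14.5 and 8.90 at 0 h. As counts, not adjusted for depth, the tag stacks of both times overlapped, while both local backgrounds were lower at 24 h. The genome-wide backgrounds of these libraries also differed, with 1.08 and 0.96 tags at 24 h, against 1.62 and 0.92 at 0 h. At chr3:159770515-159771142 the summit likewise held 19 and 18 tags at 24 h and 20 and 15 at 0 h, with a background of 2.45 and 2.11 tags at 24 h, against 7.30 and 4.31 at 0 h. Ranked by the tag stack, these 2 regions had gaps of 1.40 and 4.94 points. In each, both 24 h stacks thus ranked above both 0 h stacks. At chr7:46973214-46973571, by contrast, the stack was 56 and 48 tags at 24 h, against 30 and 19 at 0 h, and the gap by tag stack was 22.99 points. The remaining 2, chr3:128918110-128918508 and chr2:21865532-21866202, had gaps of 19.6 and 31.0 points by fold and of 30.1 and 6.97 points by tag stack.

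This division bears on the set as a whole. Ranked by the tag stack at the summit, 4598 regions met the rule, 6.33% of those that could have met it, and 3655 of these were among the 5008. The shared regions were 73.0% of the set by fold and 79.5% of the set by tag stack. In 4780 of the 5008 (95.4%), both 24 h stacks ranked above both 0 h stacks, against 17.8% of all lasting regions, and in 40 both ranked below. The stacks belong to the same 24 h and 0 h peaks that chose the regions, so these shares are a description. For the 1353 strengthened by fold but not by stack, the local background was 1.73 and 1.81 times the genome-wide background at 24 h, against 1.99 and 1.95 times at 0 h (medians). It was lower in both 24 h libraries than in both 0 h libraries, by over 0.05 of the genome-wide value, in 409 of them (30.2%), against 17.1% of all lasting regions. Of the 3655 called both ways, this held for 54 (1.48%). Their background was higher in both 24 h libraries, by the same margin, in 2041 (55.8%), against 20.1% of all lasting regions. Of the 9956 regions with the genome-wide background in all 0 h and 24 h libraries, 907 were strengthened by fold (9.11%). Across replicate numbers, 634 (6.37%) and 263 (2.64%) of them were called. Within a library, fold and tag stack put these regions in the same order, but not at the same percentile of the whole list.

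The 1 h libraries, which the rule used only for the presence of a peak, placed most strengthened regions above their 0 h level. Both 1 h percentiles were above both 0 h percentiles in 3474 of the 5008 (69.4%), while 23.4% of all lasting regions met this condition. A gap of at least 10 points at 1 h was found in 1968 (39.3%), against 5.31% of all lasting regions. Neither 1 h percentile exceeded the higher 0 h percentile in 341 (6.81%), against 49.7% of all lasting regions. In 66 (1.32%) both lay below both 0 h percentiles, against 19.2% of all lasting regions, of which 5.38% were at least 10 points below. The 1 h and 24 h comparisons share the 0 h libraries, and regions chosen for low 0 h values will tend to lie higher in any other library. For this reason the regions were also chosen against 1 of the 0 h libraries and read against the other.

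Chosen with both 24 h percentiles at least 10 points above 0 h replicate 1, 9450 regions had median differences of 4.66 and 8.34 points between the 1 h libraries and 0 h replicate 2. The medians over all lasting regions were −0.83 and 0.032 points. Chosen against 0 h replicate 2, 8506 regions had median differences of 8.28 and 11.0 points from 0 h replicate 1, and all lasting regions 0.779 and 1.53 points. The 1 h libraries thus lay above a 0 h library that had no part in the choice of these larger sets, by medians of 4.66 to 11.0 points. The rule places all 5008 strengthened regions in both sets, so the sets overlap and are not 2 separate results. The medians describe these larger sets and give no separate support for the 5008. Within the 5008, by contrast, the median difference between the mean 1 h and mean 0 h percentiles was 17.1 points.

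The steps to 1 h and on to 24 h are given as a description, since both use values that chose the regions, and the 1 h replicates of strengthened regions differed with an SD of 14.98 points. A gap of 10 points between 0 h and 1 h, and none between 1 h and 24 h, was found in 1771 regions (35.4%), against 5.04% of all lasting regions. The reverse was found in 1041 (20.8%), against 2.99%. A 10-point gap in both steps was found in 197 (3.93%), against 0.271%, and in neither step alone in 1999 (39.9%), against 91.7%. Both 24 h percentiles lay above both 1 h percentiles in 2977 strengthened regions (59.4%), against 16.4% of all lasting regions. Over all 72695, 24 h exceeded 1 h by 10 points in 3.26%, against 24.7% of the strengthened set, but the share of the strengthened set uses the 24 h values that chose it. In 1749 strengthened regions (34.9%) both 1 h percentiles fell strictly between those of the other times, against 3.40% of all lasting regions, but the rule fixes that the 24 h values lie above those at 0 h.

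Peaks in strengthened regions were narrow, above all at 0 h. The highest peak had a median width at 0 h of 341 and 257 bp, at 1 h of 422 and 396 bp, and at 24 h of 393 and 403 bp. Over all lasting regions the medians at 0 h were 520 and 416 bp, at 1 h 542 and 511 bp, and at 24 h 433 and 439 bp. Replicate 1 peaks of strengthened regions were wider at 24 h than at 0 h in 64.7% of cases and replicate 2 peaks in 85.2%, against 27.9% and 55.1% of all lasting regions. In 2424 (48.4%), both 24 h peaks were wider than both 0 h peaks, against 12.1% of all lasting regions, and in 244 (4.87%) both were narrower, against 25.996%. Widths also differ between libraries, since the shortest peak, set by the estimated fragment length, was 147 and 136 bp at 24 h, against 155 and 111 bp at 0 h. A taller peak also crosses the calling threshold over a longer stretch, so width is not independent of the rule.

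Broad regions were seldom strengthened. The merged region, joined over all 6 libraries, had a median width of 539 bp in the strengthened set, 613 bp in the weakened set and 659 bp over all lasting regions. Of lasting regions of 400 to 500 bp, 11.3% were strengthened, of those of 800 to 1000 bp 4.31%, and of those of 1500 bp or more 0.801%. The weakened share was 11.05% at 800 to 1000 bp and 1.67% at 1500 bp or more. The broadest regions were thus seldom called in either direction, while those of 800 to 1000 bp were more often weakened than strengthened. Part of the fall in the strengthened share goes with the standing at 0 h. Among regions of 30 to 40 mean 0 h percentile the median widths were equal, 506 bp in strengthened and in all regions. Between 70 and 80 they were 624 bp in strengthened regions and 740 bp in all.

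Summits of both times lay close together. The median distance between the 24 h and 0 h summits of a strengthened region was 37 bp in replicate 1 and 34 bp in replicate 2. It was 45 bp between the 0 h replicates and 27 bp between the 24 h replicates. The movement between times was therefore no larger than that between the 0 h replicates. Over all lasting regions the 24 h to 0 h distances were 35 and 33 bp. The strengthened signal thus sat on the summits called at 0 h in most regions, with 84.9% and 86.8% of the 24 h summits within 100 bp of the 0 h summit. Over all lasting regions these shares were 82.6% and 84.3%, so close summits were not particular to the strengthened set.

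Regions close to a strengthened region were often called in the opposite direction, but this depended on the measure ranked. Within 10 kb of a strengthened region lay 3384 other lasting regions, of which 16.5% were weakened and 8.33% strengthened. Around any lasting region the shares were 8.55% and 6.40%. Around weakened regions, 12.3% of neighbours were strengthened and 8.22% weakened. When the tag stack was ranked in place of the fold over local background, neighbours went the same way instead: 16.5% of 2872 neighbours of strengthened regions were strengthened and 7.45% weakened, against 5.43% and 7.66% around any lasting region. Neighbours of weakened regions were then weakened in 16.5% and strengthened in 5.28%. The pairing of opposite changes within 10 kb was therefore seen only with the measure that divides by a local background, of the 2 measures compared here.

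**Figure D4:**
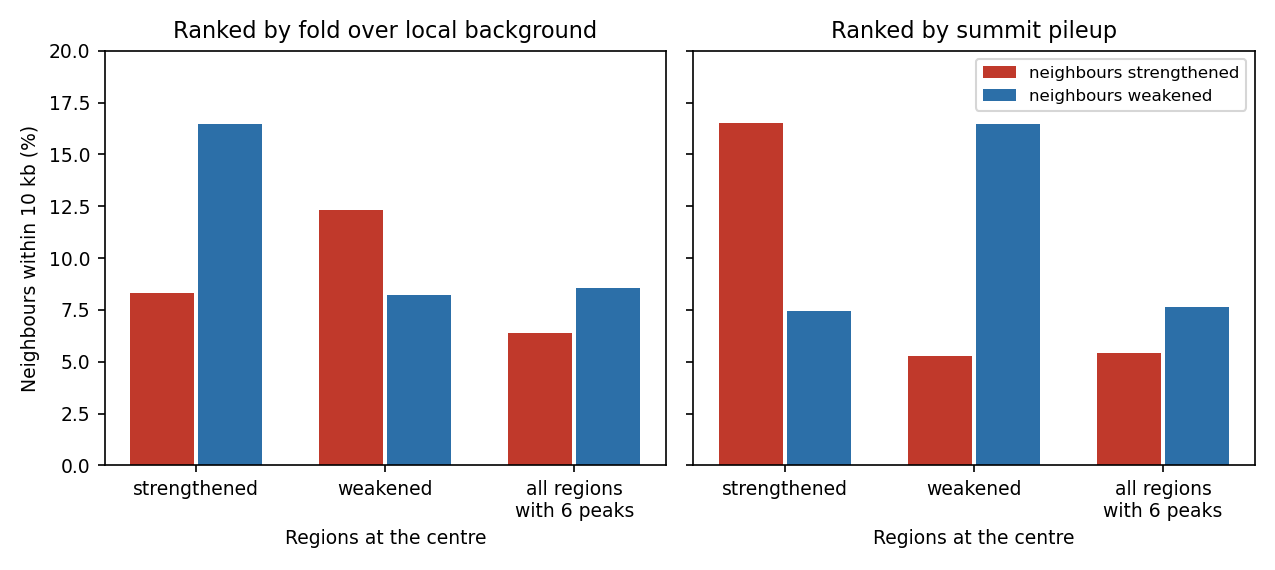
Share of other lasting regions within 10 kb (y axis, %) that were strengthened or weakened at 24 h, around strengthened, weakened and all lasting regions (x axis), with regions ranked by the fold over local background (left) or by the tag stack at the summit (right). Around strengthened regions the weakened share is 16.5% by fold and 7.45% by tag stack, and the strengthened share 8.33% and 16.5%.

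Over 50 kb the order of the shares again depended on the measure. By fold, within 50 kb of a strengthened region, 9.28% of 17577 neighbours were strengthened and 11.8% weakened, against 6.27% and 8.80% around any lasting region. By tag stack, 11.1% of 15581 neighbours were strengthened and 9.43% weakened, against 5.56% and 8.24%. With either measure strengthened regions thus lay among other regions that changed in either direction more often than lasting regions in general. Neighbours share local background and tags, so these shares are a description.

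Strengthened regions were spread over 2090 of the 2886 windows of 1 Mb that held a lasting region, and 210 windows held 5 or more of them. The windows with the most lay at 110 to 111 Mb of chromosome 9 and at 92 to 93 Mb of chromosome 12, with 12 strengthened of 44 lasting regions in each (27.3%), and at 229 to 230 Mb of chromosome 1, with 10 of 57 (17.5%). The chromosome 1 window shared its count of 10 with a window on chromosome 7 and one on chromosome 10, and was taken by order of position. On chromosome 9, only 1 region of the window was weakened, while on chromosome 12 there were 8 and on chromosome 1 there were 7. The 12 regions on chromosome 9 spanned 891 kb and had median percentiles of 40.0025 and 42.9 at 0 h, 62.4 and 74.1 at 1 h and, at 24 h, 87.5 and 79.8. All 44 lasting regions of that window had medians of 68.2 and 58.8 at 0 h, 69.5 and 72.0 at 1 h and, at 24 h, 67.2 and 72.3.

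Within the chromosome 9 window the regions differed in size of change. The largest gap was 40.8 points, at chr9:110236506-110236902, with 38.5 and 33.4 at 0 h, 47.5 and 71.2 at 1 h and, at 24 h, 96.5 and 79.3. At chr9:110802950-110803749 the percentiles were 53.8 and 43.3 at 0 h, 85.1 and 91.0 at 1 h and, at 24 h, 90.2 and 85.5, with 1 h and 24 h overlapping. On chromosome 12, chr12:92021965-92022836 had 38.5 and 15.3 at 0 h, 68.0 and 64.6 at 1 h and, at 24 h, 91.6 and 92.7, a gap of 53.1 points. On chromosome 1, chr1:229022911-229023308 had 22.9 and 15.3 at 0 h, 69.3 and 76.4 at 1 h and, at 24 h, 74.1 and 76.9, a gap of 51.2 points that was nearly complete at 1 h.

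Chromosomes differed in the share of their lasting regions that were strengthened. The share was 9.02% on chromosome 4 (315 of 3494) and 8.46% on chromosome 3, and it was 2.58% on chromosome 19 (71 of 2753), 4.08% on chromosome 22 and 4.64% on chromosome 17. Across all 23, it was lower where protein-coding genes were denser (Spearman's rho = −0.80, Pearson's r = −0.84, given as a description, since chromosomes share libraries and depth). The weakened share followed gene density in the same way (rho = −0.80), and both shares went together over chromosomes (rho = 0.84). By the tag stack, rho for strengthened regions was −0.78. Both directions thus followed gene density alike. The share with replicate 2 above replicate 1 went the other way (rho = 0.63), less so by Pearson's r (0.41).

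Chromosomes also differed among regions of equal standing. Of lasting regions of 30 to 40 mean 0 h percentile, 18.7% of 503 on the gene-poor chromosomes 4, 13 and 18 were strengthened, and 8.84% of 713 on the gene-rich chromosomes 16, 17, 19 and 22. Between 60 and 70 the shares were 7.65% of 954 and 3.27% of 1225. The difference was thus present at both standings. These chromosomes were picked after their shares were seen, and chromosome 11, with more genes per Mb than chromosome 16, is not among them.

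**Figure D5:**
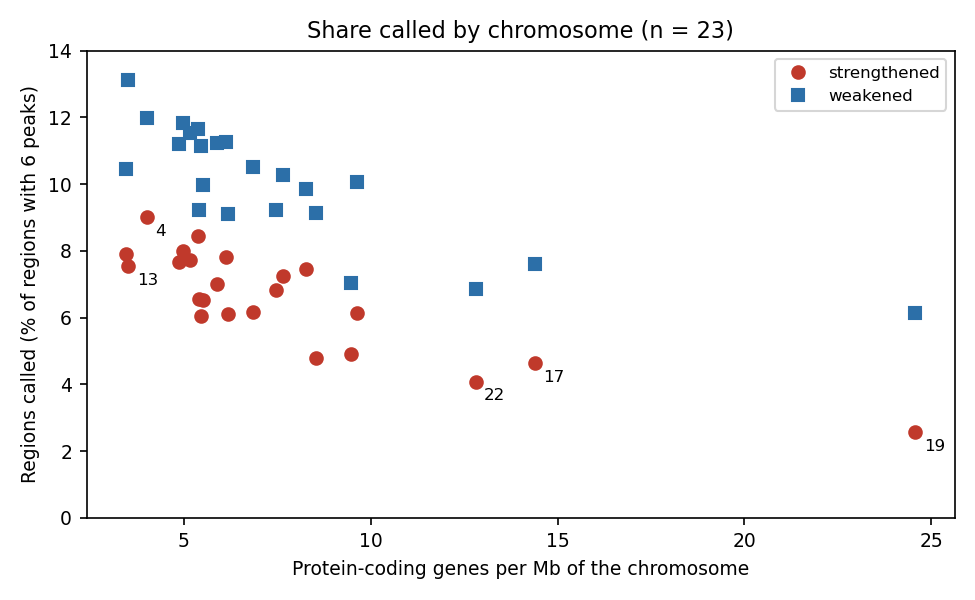
Share of lasting regions strengthened or weakened at 24 h (y axis, %) against protein-coding genes per Mb (x axis) for the 22 autosomes and X, with the strengthened points of 5 chromosomes labelled. The strengthened share runs from 9.02% on chromosome 4 to 2.58% on chromosome 19, and the weakened share is higher than the strengthened share on all 23 chromosomes as ranked here.

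The 3 regions just inside the threshold had gaps of 10.01 to 10.02 points, among them chr3:57937068-57937569 with 69.9 and 70.3 at 24 h, against 50.5 and 59.8 at 0 h. The 3 just outside had gaps of 9.98 to 9.9994 points, among them chr11:38531491-38531971 with 98.8 and 96.1 at 24 h, against 86.1 and 83.7 at 0 h. Percentiles move in steps at low folds, since up to 5.28% of the peaks of a list share 1 fold value, so a 10-point gap of a weak region can rest on a few tags.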

How the data were processed

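ATAC-seq peak lists of 6 libraries of 22Rv1 cells were used, 1 list per library. The build was hg19 and the tools were MACS2 (peaks), Bowtie2, fastp and FastQC, per the submitters' processing notes; versions, parameters, any shift of reads and duplicate removal are not given in the sources used here. Each peak has a fold (a ratio, summit pileup over local background), −log10 p, −log10 q and score, all as deposited by the authors. Overlaps of 1 bp or more merged peaks into regions (22 autosomes and X). Percentiles were average ranks within a list; ties share a rank.

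The pileup was recovered from fold and −log10 p with the usual MACS2 formulas (pseudocount of 1, Poisson p) and was whole within 0.001 for 100.0% of peaks; Poisson intervals cover counting error only. The most frequent background over the shortest peak gave relative depth. Gene counts per chromosome came from a RefSeq table on GRCh38.p14, with no positions used. Python 3.11.15, NumPy 2.4.6, pandas 2.3.3, SciPy 1.17.1 and Matplotlib 3.10.9 were used, and the code was tested on simulated data. The named regions are the 10 largest gaps, the 5 highest at 24 h, the 5 lowest at 0 h, the 3 on either side of the threshold and the 3 windows of 1 Mb with the most members; further members of those windows were picked after their values were seen. The regions and lists were chosen with earlier results of these data known. Motifs, gene names and markers need hg19 sequence or annotation and were not analysed here.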

Additional observations from a re-analysis of the deposited data

How the results depend on the processing

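The counts given here are strengthened, weakened, replicate 1 above 2 and replicate 2 above 1. The strengthened and weakened counts stayed within 1.5 times with ranking by −log10 p, −log10 q or tag stack, percentiles among lasting regions, shortened lists, 500 bp summit windows, peaks of −log10 q of at least 5 and all chromosomes. A threshold of 5 points gave 7915, 11525, 1988 and 6664, and 20 points gave 2180, 3446, 126 and 512, with 1705 regions above both 0 h libraries at 1 h; 15 points gave 320 and 1283 across replicate numbers. With at least 50% of a region covered by peaks, the counts were 2176, 2965, 346 and 1452, and 1558 were above both 0 h libraries at 1 h. Regions at the genome-wide background gave 907, 1497, 263 and 634. Across replicate numbers, percentiles among lasting regions gave 1740 with replicate 1 higher, shortened lists gave 1482 and 1754, a −log10 q of at least 5 gave 1856 with replicate 2 higher, and the tag stack gave 350 and 1657. The 24 h minus 0 h difference in the replicate not used for choosing, read in replicate 2 and then in replicate 1, was 6.09 and 3.90 points at a threshold of 5, 14.2 and 11.1 at 15 and 17.5 and 14.1 at 20. Read in replicate 2 it was 12.7 by −log10 p and by −log10 q, 15.1 by tag stack and 7.59 with 50% cover, and read in replicate 1 it was 9.08 among lasting regions and 10.1 with shortened lists; it stayed above 0 in each setting run. The cause of these shifts was not tested, except that fewer or more regions meet a stricter or looser threshold.

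Leaving out 1 library in turn gave 5075 to 10257 strengthened regions, 7551 to 16499 weakened, 841 to 5488 and 2979 to 12688 across replicate numbers, and 3890 to 8167 above both 0 h libraries at 1 h, since fewer libraries had to meet the rule; strengthened and weakened regions numbered 9153 and 14259 without 0h replicate 1, 10257 and 11137 when its replicate 2 was dropped, 9911 and 13255 when 24h replicate 1 was, and 7581 and 16499 when 24h replicate 2 was. Read in the other replicate, the difference was 9.76 to 9.77 and 7.25 points without a 1 h library and could not be given without a 0 h or 24 h library. The labels do not say what a replicate number stands for, and the replicate differences at 0 h and 24 h correlated by 0.047 over regions. With the replicate block (same-numbered differences of at least 10 points in both pairs), 6549 were strengthened, 10093 weakened and 4809 above their own 0 h library at 1 h; the block gives no count across replicate numbers. The tag stack and the genome-wide background were chosen after seeing the data. Gaps were recomputed for 26 named regions, not for members of the windows. None fell below 0 where it could be computed, but 12 of the 26 lacked a peak in all 6 libraries with shortened lists, 15 with only peaks at or above a −log10 q of 5, and 16 with 50% cover. Without 0h replicate 1 and without 24h replicate 2, regions with replicate 2 above 1 outnumbered strengthened ones. Without a 0 h or 24 h library, the sides across replicate numbers no longer held the same times, so those counts mix time with replicate number. The effect of depth was not tested.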

Other observations

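Regions lost and gained at 24 h were set beside the strengthened regions, as values with no explanation. Regions with a peak of −log10 q of at least 10 in both 24 h libraries and none in either 0 h library numbered 343. Of the strengthened regions, 2.34% had one within 50 kb, against 1.61% of weakened and 1.33% of all lasting regions. Regions with such peaks in both 0 h libraries and none at 24 h numbered 2177, and 10.7% of strengthened regions had one within 50 kb, against 9.39% of weakened and 7.86% of all lasting regions. Strengthened regions thus lay somewhat nearer to both newly open and closed regions than lasting regions in general, and the difference was not tested.

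Lasting regions in windows of 1 Mb with 1 to 10 of them were strengthened in 8.45% and weakened in 13.8% of cases. In windows with 41 to 80 these shares were 5.21% and 7.80%.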
